A study of Sus scrofa with 12 samples.

Results

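Blood stays fluid inside a vessel partly because endothelial cells (ECs) carry and release proteins that hold clotting and platelets in check. This account covers 10 genes chosen for that role, with earlier results of these data known. They are VWF, TFPI, TFPI2, F3, PROCR, PROS1, GAS6, ENTPD1, NT5E and FGL2, and 9 of them could be matched by symbol to 1 row each among the 21153 genes counted. The shares over all genes printed beside their counts therefore give a background and are no test of the 10 genes as a group. VWF, the gene of von Willebrand factor, which tethers platelets to the vessel wall, had no matching row and is not analysed here. The cells were primary arterial ECs of 3 pigs (8-month-old animals from a slaughterhouse, with no genetic change), grown on gelatin-coated slides in DMEM with fetal calf serum and heparin. Heparin, itself an anticoagulant, was present in every group. Laminar flow was applied for 48 h at a wall shear stress (WSS) of 2 dyne/cm2 (low aneurysmal), 30 dyne/cm2 (physiological) or 80 dyne/cm2 (supra-high aneurysmal), and RNA of 12 cultures was sequenced.

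Each donor gave 1 culture at 2, 1 at 80 and 2 at 30 dyne/cm2. The first set of cultures at 30 dyne/cm2 (set 1) was the control for 2 dyne/cm2 and the other (set 2) was the control for 80 dyne/cm2, so the 2 comparisons share the 3 donors but no library. According to the labels the cells were aortic, and they place the 80 dyne/cm2 cultures and their controls on another slide type at another seeding density, whereas the methods name coronary arteries and a single slide type. Slide type and set therefore cannot be told apart.

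Clotting starts when tissue factor (F3) meets factor VIIa, and tissue factor pathway inhibitor (TFPI) blocks that step. The protein C system, which includes the EC receptor PROCR and the cofactor protein S (PROS1), then destroys the activated cofactors that feed thrombin formation. Platelets are restrained on another route, since ENTPD1 (CD39) on the EC surface breaks down the ATP and ADP that activate them and NT5E (CD73) turns the resulting AMP into adenosine. ECs exposed to steady high laminar flow are known for an anticoagulant profile that includes the flow-responsive factors KLF2 and KLF4.

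Library totals lay between 29606854 and 41058902 counted reads, and expression is given as CPM (a gene's reads scaled to a common library total), in the order donor 1, 2, 3. All 8 endothelial markers that could be matched (of 10 listed) reached at least 11.5 CPM in every library, among them PECAM1 and CDH5. KLF2 fell by 4.35 on the log2 scale at 2 dyne/cm2 (adjusted p = 0.00906) and rose by 0.44 at 80 dyne/cm2 (adjusted p = 0.0428). Without the donor as a block in the test, that rise had an adjusted p of 0.616. KLF4 fell by 2.62 at 2 dyne/cm2 (adjusted p = 0.00924), and its change of 0.32 at 80 dyne/cm2 did not pass (adjusted p = 0.109). Other cell types left few reads. The 7 smooth muscle markers summed to 2.94 to 7.43 CPM and DES was at 0 in all 12 libraries, the 6 leukocyte markers summed to 8.22 to 27.4 CPM with PTPRC at 0 in 11 libraries, and the 3 lymphatic markers summed to at most 3.07 CPM. Some of these sums moved with low WSS. At 2 dyne/cm2 the endothelial sum was 4643 to 5808 CPM against 7126 to 7875 in set 1, the sum of 5 fibroblast markers was 12.8 to 70.6 CPM against 4.07 to 20.5, smooth muscle markers summed to 6.13 to 7.43 CPM against 2.94 to 4.17, leukocyte markers to 8.22 to 11.7 CPM against 15.2 to 22.5, and the platelet markers (GP9 and PPBP, the 2 of 5 that matched) to 11.99 to 14.3 CPM against 3.01 to 4.36. Single genes carried the smooth muscle, leukocyte and platelet shifts, given here as means from set 1 to 2 dyne/cm2. MYOCD rose from 0.695 to 4.56 CPM, while LMOD1 fell from 1.92 to 0.966 CPM. CD68 fell from 14.9 to 6.62 CPM, while CD14 went from 2.62 to 2.67 CPM. GP9 rose from 3.83 to 13.3 CPM, with PPBP at 0.02 CPM in both. Of the fibroblast markers, PDGFRA rose from 1.70 to 3.56 CPM, PDGFRB from 0.791 to 4.22 and DCN from 0.366 to 2.25 CPM, while LUM went from 7.42 to 6.27 CPM. By donor, COL1A1 was at 48.9, 2.77 and 2.39 CPM at 2 dyne/cm2 and at 9.11, 1.64 and 1.53 CPM in set 1. Among the endothelial markers, TEK fell from 497 to 65.9 CPM, PECAM1 from 3209 to 1964, ESAM from 609 to 408 and KDR from 86.1 to 42.5 CPM. CDH5 went from 1835 to 1694 CPM, TIE1 from 700 to 607 and ERG from 427 to 364 CPM. Only ROBO4 rose, from 169 to 236 CPM. The part of these markers in the results at 2 dyne/cm2 was not tested. In such bulk RNA, fewer cells expressing a gene and less of its RNA per cell cannot be told apart.

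Low WSS moved most of the coagulation and platelet control genes, and not in 1 direction. TFPI, ENTPD1 and NT5E fell by at least 2-fold at 2 dyne/cm2, TFPI2 and FGL2 rose by at least 2-fold, and PROS1 rose by less. Of the 9 matched genes, 8 reached 1 CPM in 3 or more of the 6 libraries and were tested, and 5 of these passed both thresholds (a change of 2-fold or more with an adjusted p below 0.05 in edgeR's quasi-likelihood test, donor as a block). Over all genes tested, 9.6% passed both (5.06% up, 4.54% down). With the adjusted p alone, 6 of the 8 passed, 3 in each direction, against 25.8% of all genes (13.4% up, 12.4% down). The median log2 fold change of the 8 was -0.27, beside 0.00 over all genes tested. ENTPD1 and NT5E had at least 1 CPM mainly in the controls, so that the filter itself favoured a difference in them, and the same holds for FGL2 at 80 dyne/cm2. Without any filter all 9 matched genes were tested and 5 passed both thresholds, as did 7.64% of all genes. Of the 9 genes, 5 had no overlap in CPM between the 3 cultures at 2 and the 3 at 30 dyne/cm2, where 36.5% of all genes had none. All 3 donors moved in the same direction for 8 of the 9 genes, as they did for 65.5% of all genes. Here and below, shares of all genes are over the genes tested in a comparison, while F3, which is among the 9, failed the filter at 2 and at 80 dyne/cm2.

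Under supra-high WSS PROCR, ENTPD1 and NT5E rose and TFPI2, PROS1 and FGL2 fell, which is 6 of 8 tested genes with an adjusted p under 0.05, against 8.4% of all genes (4.36% up, 4.04% down). NT5E and FGL2 also changed by at least 2-fold, against 2.2% of all genes past both thresholds (1.14% up, 1.05% down). The median of the 8 was 0.19, beside -0.01 over all genes. In CPM, 2 of the 9 genes (TFPI and PROS1) did not overlap between 80 and 30 dyne/cm2, where 14.2% of all genes did not, and the 3 donors moved in the same direction for 7 of the 9 genes, against 47.1% of all genes. All 6 calls at 80 dyne/cm2 depend on comparing cultures of the same donor: without the donor block their adjusted p lay between 0.401 (PROS1) and 0.732 (TFPI2), 0 genes of the table passed both thresholds in edgeR (929, or 8.3%, with an unadjusted p under 0.05), and 4 of the 8 genes had an unadjusted p under 0.05.

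**Figure D1:**
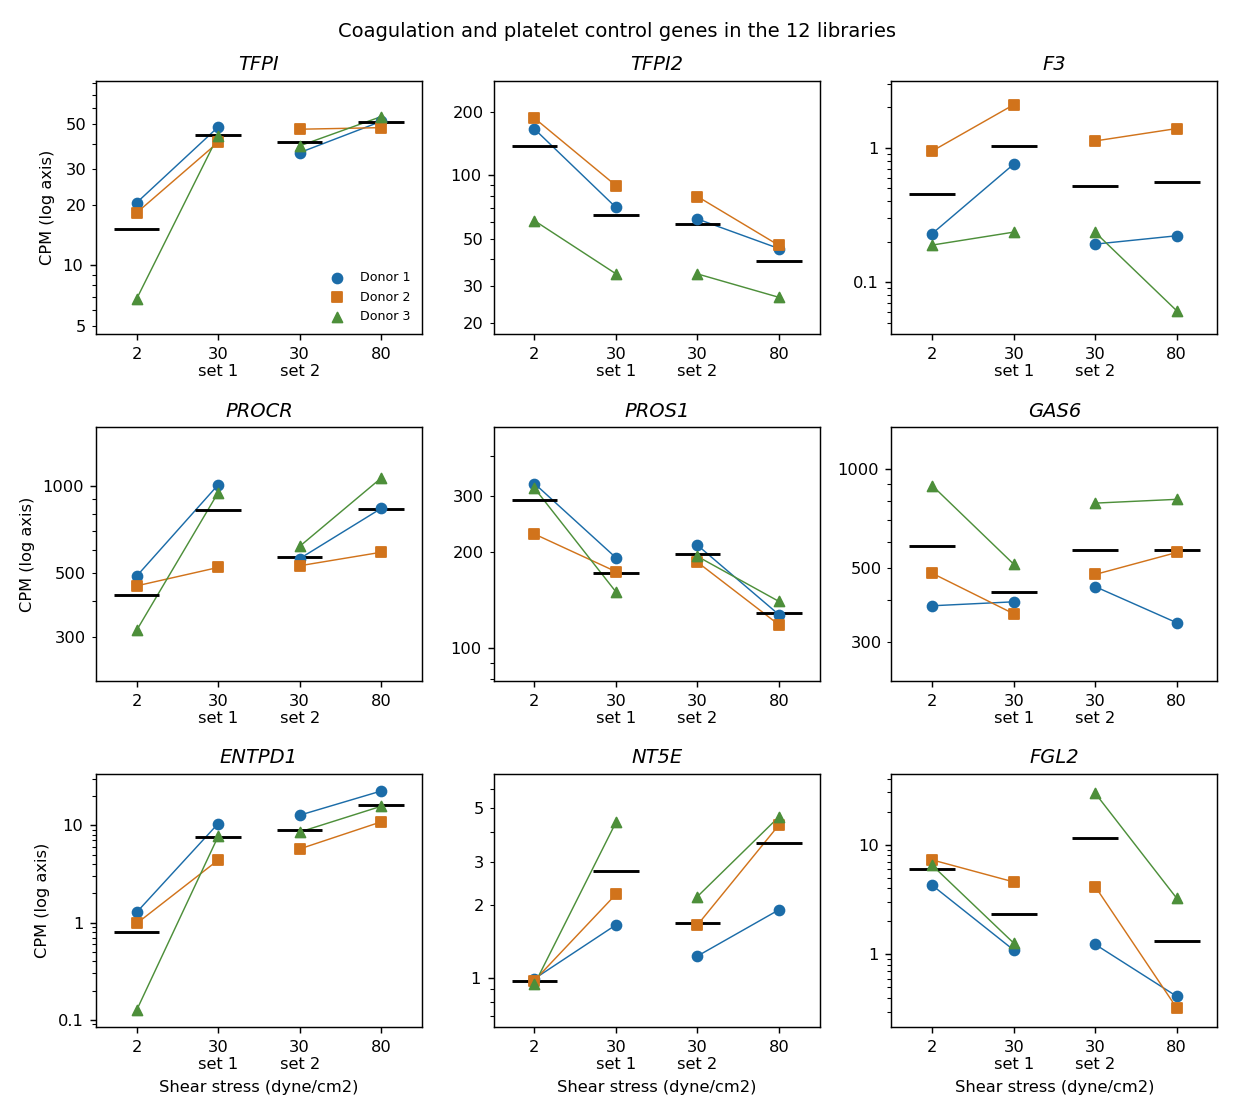
Expression of the 9 matched genes in the 12 libraries, in CPM on a log axis, by WSS (dyne/cm2) and set at 30 dyne/cm2, with cultures as points, lines joining each donor's culture with its own control, and black bars for means of 3 donors. TFPI, PROCR, ENTPD1 and NT5E lie lower at 2 than at 30 dyne/cm2 in every donor, whereas TFPI2, PROS1 and FGL2 lie higher.

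TFPI (chromosome 15, 92345083 to 92409962 in Sscrofa11.1), the Kunitz-type inhibitor of the tissue factor pathway, was at 20.4, 18.2 and 6.83 CPM at 2 dyne/cm2 and at 48.4, 40.6 and 43.8 CPM in set 1. The highest culture under low WSS lay far below the lowest control, and donor 3 gave the lowest value. TFPI was 2.37-, 2.23- and 6.42-fold lower in donors 1, 2 and 3, a log2 fold change of -1.65 (SE 0.31, adjusted p = 0.0227). Supra-high WSS gave 51.6, 48.0 and 54.4 CPM, against 36.1, 47.2 and 39.0 in set 2. These groups did not overlap either, but in donor 2 the difference was small, and the log2 fold change of 0.37 (95% interval 0.13 to 0.61) missed the threshold with an adjusted p of 0.0687. The response to 80 minus the response to 2 dyne/cm2 was 1.96 (SE 0.39, adjusted p = 0.0041), so the 2 responses of TFPI differed.

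TFPI2 (chromosome 9, 73684236 to 73694663), the paralog of TFPI that inhibits plasmin and is bound to matrix, went the other way. At 2 dyne/cm2 it was at 166, 187 and 61.0 CPM, and set 1 had 70.6, 89.6 and 34.2 CPM. Donor 3 was low in every condition, so the groups overlapped, yet each donor rose, by 2.35-, 2.09- and 1.79-fold. The log2 fold change was 1.06 (SE 0.10, adjusted p = 0.00593), and without the donor block it was 1.09 with an adjusted p of 0.18. Without donor 1 it was 0.97, just under 2-fold. Under supra-high WSS TFPI2 was at 45.0, 46.6 and 26.4 CPM against 62.2, 79.5 and 34.1 in set 2, lower in each donor. That fall was -0.51 on the log2 scale (SE 0.10, adjusted p = 0.023), and the call was lost without donor 2 or donor 3, with adjusted p of 0.0973 and 0.0771. The responses differed by -1.57 (SE 0.17, adjusted p = 2.2e-04, but 0.123 without the donor block). The span of GNGT1 overlaps that of TFPI2, and GNGT1 had at most 17 counts in any library.

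F3 (chromosome 4, 122827018 to 122837673), tissue factor, the trigger of clotting that resting endothelium holds very low, was close to the limit of detection. It had between 2 and 69 counts per library, or 0.0613 to 2.09 CPM, and donor 2 was the highest in all 4 groups. It failed the filter on low counts in both comparisons. Fitted with no filter, the log2 fold change was -1.17 at 2 dyne/cm2 (SE 0.37, adjusted p = 0.0895), lower in each donor. The fit at 80 dyne/cm2 gave 0.00, and for a change so near 0 the SE as computed here (1.77) is not a usable width. Between 80 dyne/cm2 and set 2 the donors disagreed, with ratios of 1.15, 1.24 and 0.261, the last resting on 2 counts. No change of F3 at 80 dyne/cm2 was detectable from such counts. A difference between the responses of F3 was not detectable either, at 1.19 (95% interval -0.16 to 2.53, adjusted p = 0.148).

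PROCR (chromosome 17, 38532530 to 38537397), the receptor that presents protein C for activation on ECs, was at 487, 450 and 315 CPM at 2 dyne/cm2 and at 1012, 522 and 951 CPM in set 1. Every culture under low WSS lay below every control, with donor 2 the narrowest gap. The log2 fold change of -0.94 (95% interval -1.61 to -0.27) missed the threshold with an adjusted p of 0.0557, and without donor 2 it was -1.29 with an adjusted p of 0.0296. Under supra-high WSS PROCR was at 837, 589 and 1068 CPM, and set 2 had 560, 529 and 618 CPM. It was higher in each donor although the groups overlapped, by 0.54 on the log2 scale (SE 0.13, adjusted p = 0.0486), and the call was lost without donor 3 (0.38, adjusted p = 0.315). PROCR differed between the sets at 30 dyne/cm2 by -0.50 (set 2 minus set 1, 95% interval -0.92 to -0.09, adjusted p = 0.206). With the sets exchanged, the change at 2 dyne/cm2 was -0.44 (adjusted p = 0.103) and that at 80 dyne/cm2 was 0.03 (adjusted p = 0.953). The responses to 80 and 2 dyne/cm2 differed by 1.47 (SE 0.32, adjusted p = 0.00673), and this call was lost without donor 1 (adjusted p = 0.0551) or donor 3 (adjusted p = 0.0631).

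PROS1 (chromosome 13, 165915298 to 165999118), protein S, a vitamin K-dependent cofactor of activated protein C and of TFPI and a ligand of the TAM receptors, separated 2, 30 and 80 dyne/cm2 in the order of WSS. It was at 329, 228 and 318 CPM at 2 dyne/cm2 and at 192, 174 and 150 CPM in set 1, and each culture at 2 dyne/cm2 exceeded each control. This rise was 0.77 on the log2 scale (SE 0.16, adjusted p = 0.0297), below 2-fold. The adjusted p was 0.0508 without the donor block, 0.0693 without donor 1 and 0.0607 without donor 3. The 3 cultures at 80 dyne/cm2 had 127, 118 and 140 CPM, all below the 210, 186 and 194 CPM of set 2. PROS1 fell there by 0.58 on the log2 scale (SE 0.10, adjusted p = 0.0161). Leaving out donor 2 or donor 3 gave adjusted p of 0.05002 and 0.0808. The responses differed by -1.36 (SE 0.20, adjusted p = 9.2e-04), and they did so under each of the 8 alternatives tried.

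GAS6 (chromosome 11, 78848797 to 78880733), the other vitamin K-dependent ligand of the TAM receptors and a relative of protein S, did not follow it. At 2 dyne/cm2 GAS6 was at 385, 483 and 891 CPM against 396, 364 and 515 CPM in set 1. Donor 3 rose clearly and donor 1 did not, and the log2 fold change was 0.40 (95% interval -0.08 to 0.88, adjusted p = 0.167). At 80 dyne/cm2 it was at 342, 559 and 810 CPM against 440, 479 and 789 CPM, a log2 fold change of -0.00 (95% interval -0.35 to 0.35, adjusted p = 0.997). The 2 responses did not differ beyond their error, at -0.38 (95% interval -0.98 to 0.21, adjusted p = 0.281).

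The largest change among the 9 genes at 2 dyne/cm2 was that of ENTPD1 (chromosome 14, 107263546 to 107390923). The 3 cultures under low WSS held 1.28, 0.980 and 0.126 CPM (50, 29 and 4 counts), and set 1 held 10.4, 4.39 and 7.69 CPM. No culture at 2 dyne/cm2 came near its control, and the fold was widest in donor 3, where it rests on 4 counts. ENTPD1 was 8.17-, 4.49- and 61.1-fold lower in donors 1, 2 and 3, a log2 fold change of -3.30 (SE 0.60, adjusted p = 0.0207). Supra-high WSS gave 22.5, 10.9 and 15.7 CPM against 12.7, 5.72 and 8.53 in set 2. The donors kept their order in both groups, which overlapped, and each donor rose by nearly the same factor, 1.77, 1.90 and 1.84. The log2 fold change was 0.90 (SE 0.11, adjusted p = 0.00666), and without donor 3 it was 0.88 with an adjusted p of 0.0681. With the sets exchanged it was 1.15 (adjusted p = 0.0585). The responses to 80 and 2 dyne/cm2 differed by 4.12 (SE 0.53, adjusted p = 4.9e-04), under all 8 alternatives.

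NT5E (chromosome 1, 54400786 to 54450743), which acts on the product of ENTPD1, moved the same way at a low count. At 2 dyne/cm2 it was at 0.996, 0.980 and 0.944 CPM (29 to 39 counts), and set 1 had 1.66, 2.21 and 4.36 CPM. The cultures under low WSS were nearly alike and all lay below the controls, which were spread more than 2-fold, and NT5E passed the filter only through those controls. The log2 fold change was -1.36 (SE 0.33, adjusted p = 0.0395). It was -0.72 against set 2 (adjusted p = 0.0844), the adjusted p without the donor block was 0.0693, and with no filter the change was -1.46 without donor 2 (adjusted p = 0.0709) and -0.96 without donor 3 (adjusted p = 0.11). With supra-high WSS NT5E was at 1.91, 4.26 and 4.60 CPM against 1.23, 1.66 and 2.17 CPM in set 2. Each donor was higher while the groups overlapped, and the log2 fold change was 1.08 (SE 0.22, adjusted p = 0.0293). That call was lost without donor 2 (0.88, adjusted p = 0.133) or donor 3 (1.04, adjusted p = 0.199), and against set 1 the change was 0.41 (adjusted p = 0.535). The responses differed by 2.45 (SE 0.42, adjusted p = 0.00206).

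FGL2 (chromosome 9, 102869044 to 102875564), a fibrinogen-like protein whose membrane form can cleave prothrombin, rose at 2 dyne/cm2 and fell at 80 dyne/cm2. It was at 4.26, 7.26 and 6.49 CPM under low WSS and at 1.10, 4.58 and 1.27 CPM in set 1. Donor 2 was high in both and the groups overlapped. The log2 fold change was 1.63 (SE 0.38, adjusted p = 0.0371), and the adjusted p was 0.163 without the donor block, 0.081 without donor 1 and 0.101 without donor 3.

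At 80 dyne/cm2 FGL2 was at 0.415, 0.325 and 3.25 CPM and in set 2 at 1.23, 4.15 and 29.4 CPM. The value of donor 3 in set 2 stands apart from all other libraries. Between the sets, donor 3 differed by 3.75 in log2(CPM + 1), the widest difference of 11163 genes in that donor, while in donors 1 and 2 FGL2 ranked 7558 and 5536. The 6 leukocyte markers of that library summed to 24.9 CPM, within the 8.22 to 27.4 CPM of all libraries. Of these, PTPRC and CD3E were at 0, ITGAM was at 0.0783 CPM, the lowest of the 12 libraries, CSF1R at 0.887 CPM and CD14 at 2.87 CPM, while CD68 at 21.1 CPM was the highest of the 12, next to 20.9 CPM in donor 2 at 80 dyne/cm2. Their part in the level of FGL2 was not tested. The fall at 80 dyne/cm2 was -2.92 (SE 0.29, adjusted p = 0.00394), and without donor 3, with no filter, it was -2.63 (adjusted p = 0.0465). Against set 1 the change was -1.06 (adjusted p = 0.651) and against both sets -2.39 (adjusted p = 0.177). Low WSS against set 2 gave 0.04 (adjusted p = 0.976), so for FGL2 the choice of control set decided the calls. The responses differed by -4.23 (SE 1.24, adjusted p = 0.0243), with an adjusted p of 0.0989 without the donor block and 0.0881 without donor 1. CCDC146, whose span overlaps FGL2, had 10 to 52 counts per library.

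**Figure D2:**
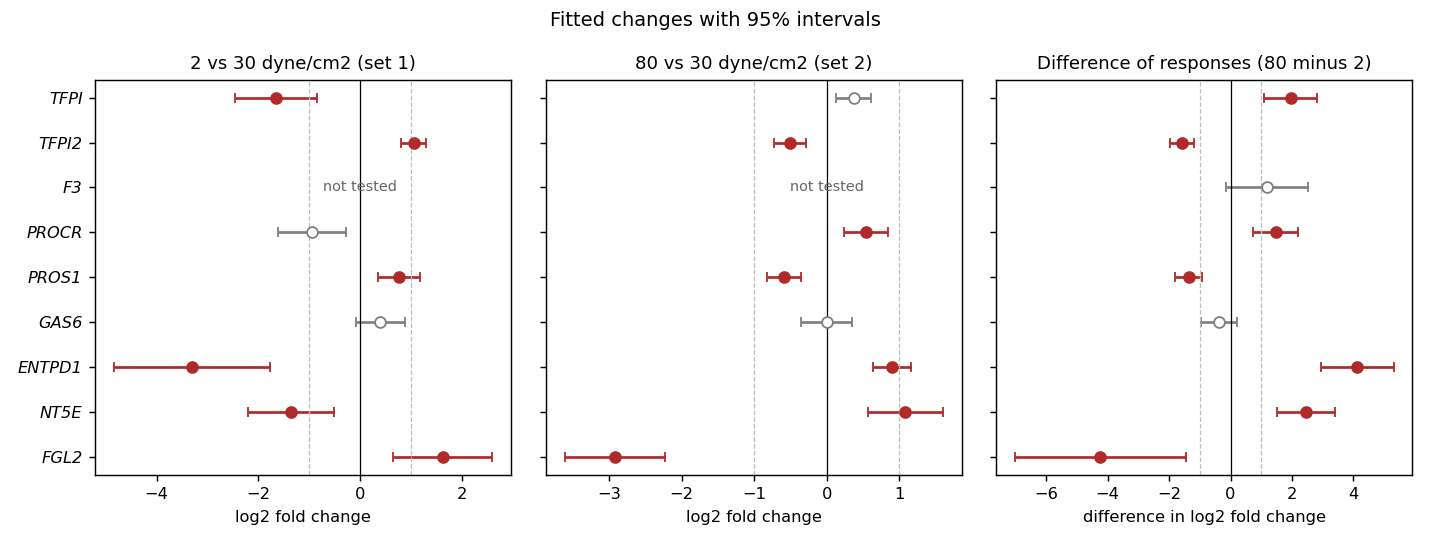
Log2 fold changes (points) of the 9 genes with 95% intervals (bars) at 2 and at 80 dyne/cm2, each against its set at 30 dyne/cm2, and the response to 80 minus the response to 2 dyne/cm2, with filled red points for an adjusted p under 0.05 and dashed lines at a 2-fold change. TFPI, ENTPD1 and NT5E lie left of 0 at 2 dyne/cm2 and right of 0 at 80 dyne/cm2, and TFPI2, PROS1 and FGL2 lie on the reverse sides.

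Of the 9 genes, 7 (all but F3 and GAS6) responded differently to 80 and to 2 dyne/cm2, where 37.1% of all genes did (17.9% positively, 19.3% negatively). For TFPI, PROCR, ENTPD1 and NT5E the difference was positive, and for TFPI2, PROS1 and FGL2 it was negative. Without the donor block 5 of the 9 differed, since TFPI2 and FGL2 were lost, beside 15.1% of all genes. At 30 dyne/cm2 the sets could be compared with each other. By the labels they also differed in slide type and seeding density, so their difference is not culture variation alone. In that comparison 0 of 8 genes passed the test in edgeR and 0 in DESeq2, beside 0.0179% of all genes with an adjusted p under 0.05 and 0.00896% past both thresholds, while 4 of them (PROCR, PROS1, GAS6 and NT5E) had an unadjusted p under 0.05 in edgeR, as did 19.2% of all genes.

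Mean levels placed 80 dyne/cm2 first and 2 dyne/cm2 last for TFPI, PROCR, ENTPD1 and NT5E. For each of these 4 genes, the lowest group was separate from its neighbour (set 1 for ENTPD1, set 2 for the others), and each neighbouring pair of groups above it overlapped. PROS1 had the reverse order, with 2 dyne/cm2 highest and 80 dyne/cm2 lowest, and both ends were separate from the sets at 30 dyne/cm2, which overlapped. TFPI2 was in that order too, but each neighbouring pair of groups overlapped. These orders run across both sets, which by the labels also differ in slide type and seeding density. Over all genes tested, 36.5% had separate groups at 2 dyne/cm2 and set 1, and 14.2% at 80 dyne/cm2 and set 2. The range of the means was 20.6-fold for ENTPD1 and 1.38-fold for GAS6.

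Across the 12 libraries, after removal of each donor's mean in log2(CPM + 1), TFPI and ENTPD1 had a Pearson r of 0.94, and TFPI2 and PROS1 one of 0.91. ENTPD1 ran against PROS1 (-0.94) and TFPI2 (-0.93). The 12 points share donors and the 3 WSS levels, so these values describe the spread of the libraries only. The genes with the most similar pattern, among about 7675 with a mean of at least 10 CPM, were CAPG for TFPI (0.98), PDK1 for TFPI2 (0.995), SKAP2 for PROS1 (0.99), IGFBP6 for ENTPD1 (0.99), TTC7B for NT5E (0.98), KITLG for PROCR (0.97) and MGST1 for FGL2 (0.98). GAS6 had no such close match, and its most similar gene was FOXO4 (0.86). The pattern of FGL2 includes the set 2 culture of donor 3, at 29.4 CPM. MGST1 was highest for that donor in the same culture, at 38.8 CPM against 23.2 to 30.8 CPM.

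The wider pathways around these genes were described with 8 lists of 62 other genes, of which 55 were matched and 42 tested. The lists too were chosen with earlier results of these data known, so the shares over all genes are no test of them. At 2 dyne/cm2, 3 rose and 14 fell past both thresholds (17 of 42, beside 5.06% up and 4.54% down over all genes), and the median was -0.39. With the adjusted p alone, 6 rose and 20 fell, beside 13.4% up and 12.4% down. At 80 dyne/cm2, 4 rose and 0 fell past both thresholds, beside 1.14% up and 1.05% down over all genes, with a median of 0.10. With the adjusted p alone 8 rose and 1 fell, beside 4.36% up and 4.04% down. The 4 calls, HS3ST1, F2, PLAU and PLAUR, were made against set 2, and in edgeR 0 pathway genes passed both thresholds against set 1 (9 with an unadjusted p under 0.05, as had 13.6% of all genes) or against both sets (8, beside 21.4%). None of the 4 passed without the donor block, where 6 of 42 had an unadjusted p under 0.05, as did 8.3% of all genes. The responses differed for 23 of the 42, beside 37.1% of all genes, and positively for 18, beside 17.9%.

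Among inhibitors of thrombin, SERPINE2 (protease nexin-1) fell by 3.47 on the log2 scale at 2 dyne/cm2 (SE 0.23), from a mean of 773 to 66.8 CPM. HS3ST1, the sulfotransferase that makes the antithrombin-binding site of heparan sulfate, fell by 3.80 (SE 0.42), from 10.8 to 0.632 CPM, and rose by 1.45 at 80 dyne/cm2 (SE 0.26), but against set 1 the change at 80 dyne/cm2 was 0.77 (adjusted p = 0.476). At 2 dyne/cm2 HS3ST1 was at 0.507 to 0.724 CPM, and it passed the filter only through set 1 (3.27 to 21.2 CPM). The filter itself therefore favoured a difference in HS3ST1. The groups at 2 and 30 dyne/cm2 were fully separate for SERPINE2 and HS3ST1, as they were for 36.5% of all genes. THBD, thrombomodulin, had no matching row, and of the 4 genes of the protein C list only F5 (factor V) was tested, which fell by 1.38 at 2 dyne/cm2 (SE 0.17).

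Over all genes tested at 2 dyne/cm2, 4.54% fell and 5.06% rose past both thresholds. Of 6 tested coagulation factors and protease-activated receptors, 3 fell past both and none rose. They were F2 (prothrombin, -2.28, SE 0.30), F2RL1 (the receptor PAR2, which trypsin and factors VIIa and Xa cleave and which is not a thrombin receptor, -3.33, SE 0.47) and F2RL3 (the thrombin receptor PAR4, -2.25, SE 0.26). Against set 2 F2 rose by 1.31 at 80 dyne/cm2 (SE 0.20), but against set 1 the change was -0.04 (adjusted p = 0.959), and set 2 lay below set 1 (log2 difference -1.34, adjusted p = 0.0796). With set 2 as the control, the change of F2 at 2 dyne/cm2 was -0.96 (adjusted p = 0.0165). Among 9 tested genes of VWF storage and release, SELP (P-selectin, which captures leukocytes and platelets) fell from a mean of 882 to 101 CPM, by 3.41 (SE 0.53, adjusted p = 0.0531 without donor 2), while F8 (factor VIII, carried by VWF) was at -0.01 (95% interval -0.28 to 0.27). In the TAM receptor list MERTK fell by 1.36 (SE 0.26, adjusted p = 0.0822 without donor 3), whereas AXL was at 0.54 (95% interval 0.11 to 0.96, adjusted p = 0.0727) and TYRO3 at 0.09 (95% interval -0.19 to 0.36).

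Nucleotide handling was the list with the most genes that rose past both thresholds at 2 dyne/cm2, 3 of 6 tested, beside 5.06% of all genes tested. ENTPD3, a relative of ENTPD1 that also splits ATP and ADP, rose from a mean of 154 to 434 CPM, by 1.53 (SE 0.17). ENPP1, which splits ATP to AMP and pyrophosphate, rose by 1.71 (SE 0.17), and ADORA2A, an adenosine receptor that inhibits platelets and leukocytes, rose by 1.97 (SE 0.33). All 3 had separate groups, as had 36.5% of all genes. ENTPD1 and NT5E had separate groups too, but they fell. At 80 dyne/cm2 ADORA2A fell by 0.90 (SE 0.17, adjusted p = 0.162 against set 1), and ENTPD3 (-0.36, adjusted p = 0.285) and ENPP1 (-0.68, adjusted p = 0.0643) did not pass. P2RY2, a receptor for ATP and UTP, fell by 1.69 (SE 0.32) under low WSS and rose by 0.72 (SE 0.09) under supra-high WSS, with an adjusted p of 0.243 against set 1.

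In the fibrinolysis list, PLAU (urokinase) fell by 3.19 (SE 0.12) at 2 dyne/cm2 and rose by 1.18 (SE 0.12) at 80 dyne/cm2, and its receptor PLAUR fell by 2.81 (SE 0.39) and rose by 1.15 (SE 0.12). Both rises depend on set 2, which was lower than set 1 for PLAU (-1.07, adjusted p = 0.0563) and PLAUR (-1.10, adjusted p = 0.0681). Against set 1 the changes at 80 dyne/cm2 were 0.10 for PLAU (adjusted p = 0.788) and 0.04 for PLAUR (adjusted p = 0.958). S100A10, part of the annexin A2 complex that binds plasminogen, fell by 1.65 (SE 0.17) at 2 dyne/cm2. In the prostanoid and nitric oxide list NOS3 (endothelial nitric oxide synthase) fell by 1.86 (SE 0.20) and rose by 0.74 (SE 0.15, but 0.33 with an adjusted p of 0.495 against set 1). PTGS2 (cyclooxygenase-2) fell by 1.21 (SE 0.12) at 2 dyne/cm2 and rose by 0.70 (SE 0.10) at 80 dyne/cm2, and both directions turned when the sets were exchanged, to 0.37 (adjusted p = 0.714) and -0.84 (adjusted p = 0.58). Without the donor block the change of PTGS2 at 80 dyne/cm2 had an adjusted p of 0.922. The difference between the responses of PTGS2 did not pass (adjusted p = 0.121). Without the donor block F5, F2RL1, F2RL3, ADORA2A and PTGS2 lost their calls at 2 dyne/cm2 (adjusted p of 0.0857 for F2RL1 to 0.3 for F5), which left 12 of the 17.

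**Figure D3:**
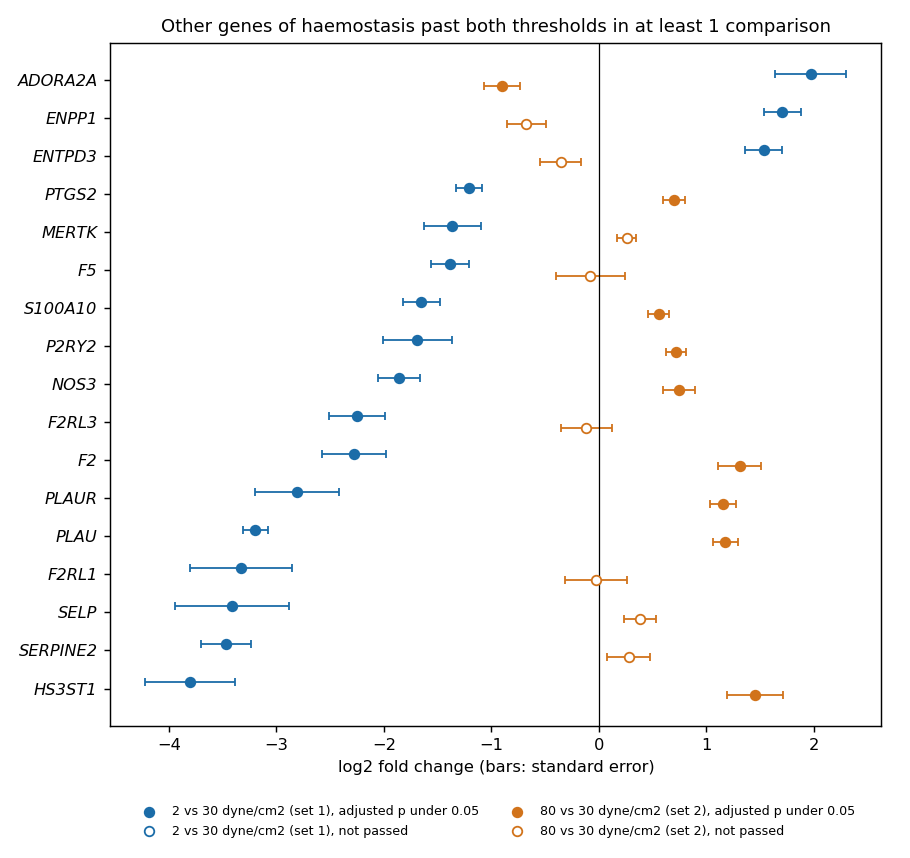
Log2 fold changes (points) with standard errors (bars) of the 17 pathway genes past both thresholds in at least 1 comparison, at 2 dyne/cm2 (blue) and 80 dyne/cm2 (orange), with filled points for an adjusted p under 0.05. The 14 genes left of 0 in blue fell at 2 dyne/cm2, and HS3ST1, F2, PLAU and PLAUR lie beyond 1 in orange, where the control is set 2.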

How the data were processed

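Primary porcine ECs were sequenced as single-end libraries. Per the submitters' processing notes and the labels, the authors used CASAVA 1.8.2, ran STAR 2.4 against Sscrofa11.1, dropped reads that mapped to more than 1 location and counted reads per gene with featureCounts 1.4.6. They deposited raw counts, not normalized, for 21153 genes, of which 14572 had a symbol in the table of names used here. Overlapping genes may share or lose reads, and the sources used here do not say whether the counting used strand. Gene spans are from RefSeq for the same assembly. Sequences were not used here.

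The quasi-likelihood test of edgeR 4.0.16, with TMM factors, was run in R 4.3.3 on genes that reached 1 CPM in 3 or more libraries of a comparison, which stands in for the 1 RPKM of the study's methods. P-values were adjusted over all genes tested by the Benjamini-Hochberg method and are two-sided. The replicate number was a block, since the labels give the same donor letter to the same number and the methods compare cultures of 1 donor. After removal of group means, libraries of the same number correlated at 0.61 to 0.86 (18 pairs, 11568 genes) and all others at -0.55 to -0.17 (36 pairs). Deviations from a mean of 3 libraries cancel out, so positive values for the same number push the others below 0. The negative range therefore adds no separate evidence for the block. The thresholds were an adjusted p below 0.05 and a 2-fold change. The difference between responses was fitted over all 12 libraries and called on the adjusted p alone. SE is the log2 fold change divided by the square root of F. The n is 3 donors per group, each with 1 culture.

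The labels do not state which set at 30 dyne/cm2 belongs to which comparison. Cultures numbered 1 and 2 of each donor in the labels are set 1 and 2 dyne/cm2, and those numbered 3 and 4 are set 2 and 80 dyne/cm2, and the pairing follows these numbers. The 10 genes, the lists and the tests were chosen with earlier results of these data known. All 10 genes are named, and of the 8 lists the text names genes past both thresholds in at least 1 comparison, with F8, AXL and TYRO3 added after their values were seen. One gene of the lists is not reported here. Alternatives were no block, relative log expression, DESeq2 1.42.0 with the block, no filter, filterByExpr, dispersion from 12 libraries, a 1.5-fold test, no fold threshold, the other or both sets as control, and each donor left out. Leaving out a donor with no filter was chosen after seeing the data. Scripts were first tested on simulated data.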

Additional observations from a re-analysis of the deposited data

Results flagged for a closer look

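For 7 genes the response to 80 dyne/cm2 and the response to 2 dyne/cm2 differed when the difference itself was tested over the 12 libraries. The differences, on the log2 scale and as the response to 80 minus the response to 2 dyne/cm2, were 1.96 for TFPI, 1.47 for PROCR, 4.12 for ENTPD1 and 2.45 for NT5E. They were -1.57 for TFPI2, -1.36 for PROS1 and -4.23 for FGL2. The difference for FGL2 includes the set 2 culture of donor 3, whose 29.4 CPM had no counterpart in the other 11 libraries.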

How the results depend on the processing

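At 2 dyne/cm2, 5 of the coagulation and platelet control genes passed both thresholds. This count became 2 without the replicate block, 1 in the test against a 1.5-fold change and 3 with the other set as control, and it ranged from 1 to 5 with a donor left out (3 to 5 when no filter was applied as well). Without donor 1 the filter removed ENTPD1 and NT5E, so that 6 genes were tested. At 80 dyne/cm2 the count of 2 became 0 without the block, 0 with all 12 libraries in 1 model, 0 with the other set, 1 with both sets, 1 in the 1.5-fold test and 6 with the adjusted p alone, and it ranged from 0 to 2 with a donor left out (1 to 2 with no filter). The 17 pathway genes at 2 dyne/cm2 became 26 with the adjusted p alone. The 4 pathway genes at 80 dyne/cm2 became 0 without the block, 2 in the 12-library model, 9 with the adjusted p alone, 2 in the 1.5-fold test, and 0 with the other set or both sets. Over all genes, 1078 passed at 2 dyne/cm2 (635 without the block, 2895 with the adjusted p alone, 676 in the 1.5-fold test) and 246 at 80 dyne/cm2 (0, 940 and 83). The other set gave 24 genes and both sets 84 at 80 dyne/cm2, the 12-library model 125, and leaving out donor 2 or donor 3 132 and 136. The cause of these shifts was not tested.

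GAS6 at 80 dyne/cm2 was near 0 and changed sign, to 0.0509 without the block, 0.002 with filterByExpr, 0.0166 in the 12-library model, 0.36 and 0.19 with the other set and both sets, and 0.21 without replicate 1, with or without the filter (range with a donor left out -0.176 to 0.21). FGL2 between the sets at 30 dyne/cm2 went from 1.53 to -0.0168 without replicate 3 and was 2.82 without replicate 2. The replicate block changed no other call of the coagulation and platelet control genes than those given with the results. The responses differed for 4294 genes of the whole table, 1746 without the block, 1921 with a 2-fold threshold, and 2403 and 1949 without donors 1 and 3. Between the sets at 30 dyne/cm2, 1 gene of the table passed both thresholds, 66 in DESeq2 and 46 with no filter. Relative log expression and DESeq2 left the counts of genes called at 5 and 2.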
